A study of Homo sapiens with 24 samples.

Results

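The 7 genes described here encode the proteins that read and erase N6-methyladenosine (m6A) in mRNA: the YTH-domain readers YTHDF1, YTHDF2, YTHDF3, YTHDC1 and YTHDC2, and the demethylases FTO and ALKBH5. They were chosen by name and function out of 20056 protein-coding genes with a RefSeq span; the rule uses no measured value, but the set was proposed with earlier results of these data known. A summit, the highest point of a called m6A peak, was given to a gene when its position lay inside the gene's span, which gave 202 of the 155075 summits in the deposited lists. The study made 4 stable lines of HepG2, an established human liver cancer cell line, by puromycin selection after lentiviral transduction. The first line expressed EGFP, a fluorescent protein that serves as the control, and the second METTL14 in its wild-type form (WT). The others expressed METTL14 with the substitution R298P or D312A. No label names a deletion of the cells' own METTL14 in any line, and the sources used here say neither which promoter drove the cassettes nor whether a line was 1 clone. Each line had 3 biological replicates, and each replicate an immunoprecipitated (IP) and an input library, so there were 24 samples.

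As background, METTL14 is the RNA-binding partner of METTL3, the enzyme that places m6A on nascent mRNA. YTH domains hold the methylated adenosine in an aromatic cage. The YTHDF proteins are cytoplasmic and are best known for recruiting mRNA decay, YTHDC1 is nuclear and acts in splicing and export, and YTHDC2 is a helicase known from meiosis. FTO and ALKBH5 are iron-dependent dioxygenases of the AlkB family that remove the methyl group. The transcripts of these genes can themselves carry m6A, and that is what the summit lists show.

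The shortest list, of D312A replicate 2, held 8669 summits and the longest, of EGFP replicate 1, 15373; D312A replicate 2 also had the fewest summits in the 7 genes. Lists averaged 13966 ± 1357 summits for EGFP and 14177 ± 1358 for WT, against 12424 ± 1139 for R298P and 11125 ± 2127 for D312A (SD, n = 3), so both substituted lines had shorter lists. The number of reads behind a list is unknown, no counting interval could be set, and a missing summit may lie just under the calling threshold. Codes in the list names differ between replicate 1 and the other replicates of every line, so some differences are also given separately for each code. Liver markers all held summits, 9 of 9, and 6 of 12 markers of other cell types held any, where 10287 of the 20056 protein-coding genes did. Of the 9 liver markers 1 was called across the 4 lines by the test described below, HNF4A, a liver transcription factor, where 2.77% of all genes were. By the region calls defined below, HNF4A lost a region in R298P against EGFP, another in D312A against WT and another in D312A against EGFP. TF, which encodes transferrin, lost regions in R298P against WT and against EGFP. Of all regions, 1.72% were lost in R298P against WT and 1.56% against EGFP, and in D312A 1.32% and 1.17%. The part of these markers in the members' results was not tested. In the span of METTL14, the expressed gene, 3 regions held a summit in all 9 libraries of the METTL14 lines and in 0 of 3 EGFP libraries.

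Summit counts per gene separated the members into a well-marked and a sparsely marked set. YTHDF3 held 63 summits over the 12 libraries, YTHDF1 52, YTHDF2 36 and YTHDC1 35, against a median of 10 among the 10287 protein-coding genes with any summit. FTO held 8, YTHDC2 7 and ALKBH5 1. YTHDF1, YTHDF2 and YTHDF3 had a summit in all 12 libraries, as did 33.1% of the genes with any summit. Over the 7 genes together, the EGFP libraries held 18, 19 and 20 summits and the WT libraries 17, 18 and 22. The R298P libraries held 15, 14 and 16, below every EGFP and WT library, and the D312A libraries held 14, 10 and 19, which overlap them. Per 10000 summits of a list, EGFP averaged 13.7 ± 2.04 and WT 13.4 ± 1.69, while R298P averaged 12.1 ± 0.441 and D312A 12.7 ± 2.28 (SD, n = 3). On that scale the libraries of the lines overlapped, at 11.7 to 15.8 in EGFP, 11.5 to 14.6 in WT, 11.7 to 12.5 in R298P and 11.3 to 15.4 in D312A.

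**Figure D1:**
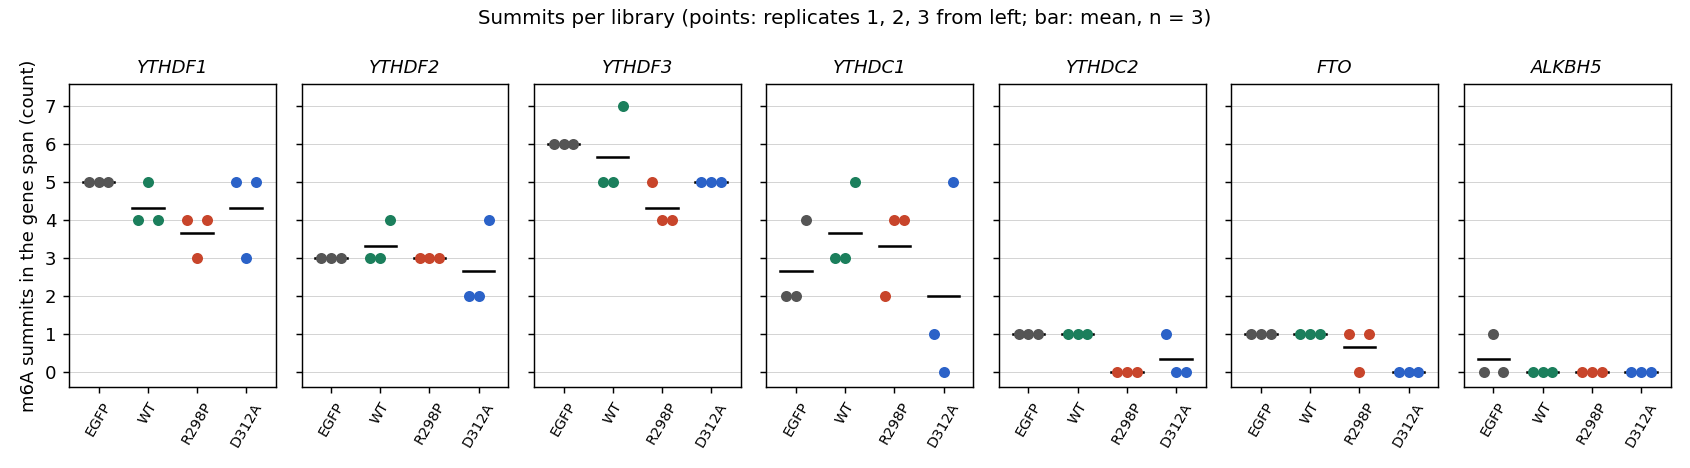
Number of m6A summits (vertical axis, count) in the span of each of the 7 genes, by line (horizontal axis); points are replicates 1, 2 and 3 from left to right and the bar is the mean of 3. YTHDC2 is at 0 in all 3 R298P libraries and FTO at 0 in all 3 D312A libraries, while YTHDF1, YTHDF2 and YTHDF3 hold summits everywhere.

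The counts were compared between lines with exact permutation tests over the libraries, two-sided, fitted for every gene and adjusted by the Benjamini-Hochberg method over 10287 genes. No gene passed the adjustment in any of these tests (every adjusted p was 1), so calls below are at an unadjusted p under 0.05 and are read against the share of all genes called. Genes with a summit in 1 library only, ALKBH5 among the 7, cannot be called, and they lower that share. How many of all genes these are was not counted. Across the 4 lines, 1 of the 7 genes was called, YTHDC2 (exact p = 0.0455), where 2.77% of all genes were. In R298P against the other 9 libraries 2 of 7 were called, YTHDC2 and YTHDF3, both lower in R298P, where 3.17% of all genes were called in either direction and 1.29% lower. In D312A against the other 9, 1 of 7 was called, FTO, lower in D312A, where 1.98% of all genes were called in either direction and 1.63% lower. With libraries permuted only within the codes of the lists, an alternative chosen after the results were seen, YTHDC2 kept its 4-line call (exact p = 0.0429) and YTHDF3 in R298P (0.0446) and FTO in D312A (0.0268) theirs, while YTHDC2 in R298P missed the threshold (0.0536). With the replicate number as the block, YTHDC2 missed it across the 4 lines (exact p = 0.0833) and in R298P (0.0625). YTHDF3 in R298P missed it too (0.0625), while FTO in D312A kept its call (0.03125). EGFP and WT, each against the other 9, gave 0 of 7, with 2.37% and 2.21% of all genes called. Between 2 lines, 3 libraries against 3 cannot give an exact p below 0.1, so no pair of lines can pass. A summit count can fall with less methylation or with less of the RNA itself, and the lists alone cannot tell these apart.

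YTHDF1 is a cytoplasmic reader linked to translation and decay of methylated mRNA. Its gene lies on the minus strand of chromosome 20 at 63195429 to 63216131 (hg38, 20703 nt). It held 5, 5 and 5 summits in EGFP, 4, 5 and 4 in WT, 4, 3 and 4 in R298P and 5, 3 and 5 in D312A. R298P lay below EGFP in every library, at the smallest p that 3 against 3 allows (exact permutation p = 0.1), and overlapped WT and D312A. How many of all genes separate R298P from EGFP in this way was not counted, and R298P lists were shorter on average. The summits were packed: when summits of all lists within 100 nt of a neighbour were merged into regions, 5 of its 7 regions fell into 1253 nt, or 6.05% of the span, and held 41 of its 52 summits.

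One YTHDF1 region, 63202426 to 63202527, held 1 summit in each of the 12 libraries, but at different positions. In EGFP the summits stood at 63202426, 63202434 and 63202433, and in R298P at 63202513, 63202509 and 63202525. In WT they stood at 63202436, 63202527 and 63202527, and in D312A at 63202436, 63202430 and 63202516. EGFP and R298P did not overlap, and WT and D312A each held both positions. The R298P mean lay 84.7 nt above that of EGFP on the coordinate, which is upstream in this minus-strand gene (exact p = 0.1, the smallest 3 against 3 can give). The 4-line test gave an exact p of 0.114, and 1 after adjustment over the 3304 regions with 1 summit in every library. Among these regions, R298P and EGFP positions did not overlap in 9.2%, and did so with means at least 50 nt apart in 1.91%. This region was singled out after its positions were seen. A further region at the gene's end, a median of 104.5 nt from it, was present in all 9 EGFP, WT and D312A libraries and in 1 of 3 R298P libraries, where its summit ranked at the 0.419 percentile of the list.

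YTHDF2, the reader best known for directing methylated mRNA to the deadenylase machinery, lies on the plus strand of chromosome 1 at 28736624 to 28769775 (33152 nt). It held 3, 3 and 3 summits in EGFP, 3, 3 and 4 in WT, 3, 3 and 3 in R298P and 2, 2 and 4 in D312A. The count was not called across the 4 lines (exact permutation p = 0.927). A region at 28769060 to 28769110, 702 nt from the gene's end, was present in 3 of 3 EGFP and 3 of 3 WT libraries, 0 of 3 R298P and 1 of 3 D312A libraries. A region at 28743088 to 28743138 was present in 0 of 3 EGFP, 1 of 3 WT, 3 of 3 R298P and 1 of 3 D312A libraries. Across the 4 lines the exact p was 0.0455 for the region near the end and 0.182 for the upstream one, and both adjusted p values were 1. R298P thus held the same number of YTHDF2 summits as EGFP, with 1 near the gene's end absent and 1 in the upstream cluster present instead.

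The rank of each summit's value in its own list, as a percentile, shows how strong these calls were. The YTHDF2 region near the gene's end ranked at 70.1, 2.98 and 51.1 in EGFP, 73.4, 12.7 and 51.3 in WT and 61.4 in D312A replicate 3. In replicate 2 of both EGFP and WT it thus ranked low in its list, and the region is no longer called lost in R298P when weaker summits (value under 10) are dropped or all lists are made equally long. The upstream region ranked at 59.9, 56.6 and 64.8 in R298P, against 23.5 in WT replicate 3 and 11.1 in D312A replicate 3. With either of those restrictions it is called gained in R298P against WT and D312A as well as EGFP. The remaining strong regions of YTHDF2 did not separate the lines: 28743784 to 28743821 was present in all 12 libraries, and 28742798 to 28742820 in 11, all but D312A replicate 2. Together 4 regions in 1024 nt, 3.09% of the span, held 29 of the 36 summits.

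YTHDF3, which works with the other YTHDF proteins in the cytoplasm, lies on chromosome 8 at 63168553 to 63212788 (44236 nt). It held the most summits of the 7 genes, 6, 6 and 6 in EGFP, 5, 5 and 7 in WT, 5, 4 and 4 in R298P and 5, 5 and 5 in D312A. All EGFP libraries lay above all R298P and D312A libraries, and WT overlapped both. The share of all genes that separate these lines likewise was not counted, and the lists of both substituted lines were shorter on average. The R298P mean minus that of the other 9 libraries was -1.22 summits (exact p = 0.0409, adjusted p = 1). Without R298P replicate 2 or without R298P replicate 3 that p was 0.164, and without R298P replicate 1 it was 0.0182 (difference -1.56). With values of at least 10 the difference was -1.89 (exact p = 0.00909), with lists of equal length -1.33 (0.0909) and per 10000 summits -0.796 (0.123). Its 6 regions between 63186280 and 63187733, 3.29% of the span, held 51 of the 63 summits. Of these, 63186599 to 63186605 was present in all 12 libraries, with positions within 7 nt and percentiles from 70.4 to 97.9, and 63187464 to 63187493 was also present in all 12. The neighbouring region 63186280 to 63186292 was present in 9 of 9 EGFP, WT and D312A libraries, at percentiles up to 96.9, and in 1 of 3 R298P libraries, at percentile 30.2. A further region at 63187729 to 63187733 was present in 2 of 3 EGFP and 2 of 3 WT libraries and in 0 of 6 substituted libraries.

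**Figure D2:**
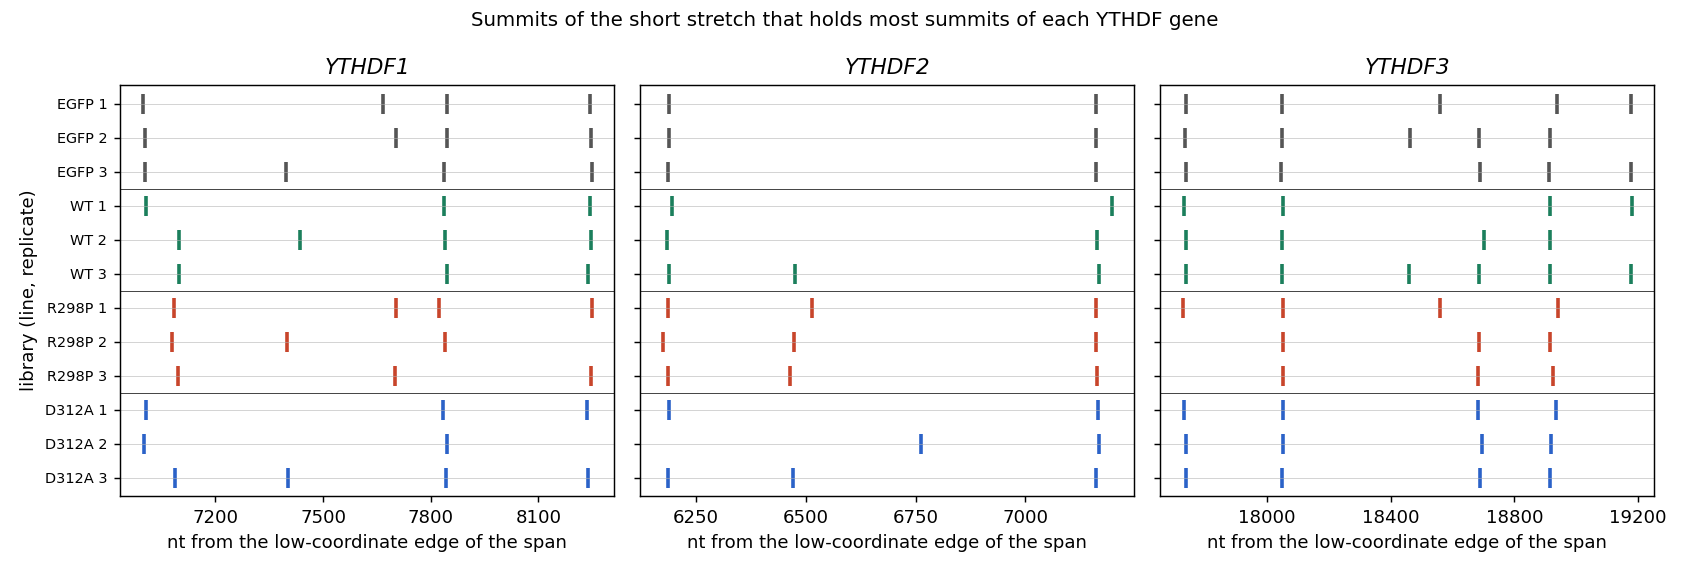
Position of each summit (horizontal axis, nt from the low-coordinate edge of the gene span) in each of the 12 libraries (vertical axis) for the dense stretch of YTHDF1, YTHDF2 and YTHDF3; each tick is 1 summit. Most positions recur across lines, the left-most YTHDF1 summit stands 84.7 nt further right on average in R298P than in EGFP, and the second column of YTHDF2 summits from the left is present in 3 of 3 R298P and 0 of 3 EGFP libraries.

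YTHDC1, the nuclear reader, lies on the minus strand of chromosome 4 at 68310387 to 68350090 (39704 nt). It held 2, 2 and 4 summits in EGFP, 3, 3 and 5 in WT, 2, 4 and 4 in R298P and 1, 0 and 5 in D312A. The spread inside D312A, 0 to 5, was wider than any difference between line means (exact permutation p = 0.655), and D312A replicate 2 was the 1 library without a YTHDC1 summit. Its 35 summits fell into 9 regions, and none of these was present in all 12 libraries. The region 68337110 to 68337138 was present in 10, and 68314120 to 68314192 in 8, namely 3 of 3 EGFP, 3 of 3 WT, 1 of 3 R298P and 1 of 3 D312A libraries.

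YTHDC1 held summits within 100 nt of its annotated start, as 1 of the 6 members with a known strand; 18.6% of all genes with a summit and a known start did so, which is near the members' share. The summits stood at 68349999 in R298P replicate 2 and 68350024 in R298P replicate 3, ranked low (percentiles 23.2 and 14.4), and 0 of the other 10 libraries held one there. As background, anti-m6A antibodies also bind m6Am, a related modification of adenosine at the first transcribed base. The RefSeq start of YTHDC1 (GRCh38.p14, minus strand) is therefore shown, as 15 bases before the start and 15 from it, with the first transcribed base in capitals.
YTHDC1 start: taaacagcgcagggcAtttcgggagcggga
The first base was A, as in 44.4% of the 35116 start windows of the RefSeq table. YTHDF1, YTHDC2, FTO and ALKBH5 began with G, and the annotated starts of YTHDF2 with C and with A. No GAC was found in the first 50 bases of YTHDC1, read in the direction of transcription, where 46.9% of windows held one. Both summits lay beyond these bases, at a median of 78.5 nt from the start, so this says nothing about the sequence at the summits. The part of m6Am in these summits was not tested.

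YTHDC2, a helicase with a YTH domain, lies on the plus strand of chromosome 5 at 113513694 to 113595284 (81591 nt). All its summits fell into a single region 6 nt wide, 113593547 to 113593552, at a median of 1736 nt from the gene's end. The region held 1 summit in each of the 3 EGFP and 3 WT libraries, 0 in each R298P library, and 1, 0 and 0 in D312A. R298P did not overlap EGFP or WT, and its mean minus that of the other 9 libraries was -0.778 summits (exact p = 0.0455, adjusted p = 1). Leaving out any 1 R298P library raised that p to 0.109, and any 1 of the 7 libraries with the summit to 0.0606. The 4-line p rose to 0.1 without any 1 R298P library. The percentiles of the summit value within its list were 77.6, 79.4 and 77.6 in EGFP, 54.5, 74.4 and 88.3 in WT and 55.0 in D312A replicate 1. The region was also called lost in R298P against WT and against EGFP with values of at least 10 and with lists of equal length. Other merging distances or leaving out a replicate number could not undo this call.

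FTO, the first m6A demethylase described and also known to act on m6Am, has the longest span of the 7 genes, on the plus strand of chromosome 16 at 53703963 to 54121941 (417979 nt). Its single region, 53826319 to 53826325, lay 29.3% of the way along the span and in no other RefSeq gene. It held 1 summit in each EGFP and each WT library, 1, 0 and 1 in R298P, and 0 in all D312A libraries. D312A did not overlap EGFP or WT, and its mean minus that of the other 9 libraries was -0.889 summits (exact p = 0.0182, adjusted p = 1). The percentiles were 56.5, 82.5 and 61.4 in EGFP and 71.7, 71.9 and 76.7 in WT, against 45.6 and 42.0 in R298P replicates 1 and 3. Without any 1 of the D312A libraries the p was 0.0545. The loss in D312A was also called against WT and against EGFP with values of at least 10 and with lists of equal length. As for YTHDC2, other merging distances or leaving out a replicate number could not undo it.

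ALKBH5, the nuclear demethylase, lies on the plus strand of chromosome 17 at 18183828 to 18209954 (26127 nt). It held a single summit in all, at 18208368 in EGFP replicate 2, with a percentile of 11.1. ALKBH5 was thus at 0 in 11 of 12 libraries, and no comparison between lines could be drawn.

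Region by region, the calls in these genes were few. A region was called lost when present in 3 of 3 libraries of the reference line and 0 of 3 of the other, and gained in the opposite case. Shares are over the regions with a summit in either line. Of all regions in the series 35.8% occurred in 1 library only and could not be called, against 5 of the 32 in these genes, which lowers the shares of all regions. In R298P against WT, 2 of 28 regions in these genes were lost, those of YTHDC2 and of YTHDF2 near its end, where 1.72% of all regions were lost, and 0 were gained, where 0.711% of all were. Against EGFP, R298P had the same 2 lost of 29, with 1.56% of all regions lost, and 1 gained in YTHDF2, with 0.787% of all gained. In D312A 1 region was lost, that of FTO, both against WT and against EGFP, where 1.32% and 1.17% of all regions were lost. D312A had 0 gained against both, with 0.116% and 0.168% of all regions gained. WT against EGFP had 0 gained and 0 lost, with 0.408% and 0.255% of all regions, and R298P against D312A also 0 and 0, with 1.47% and 0.366%. The comparisons with WT share its libraries, as do those with EGFP, so they are not independent of each other.

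**Figure D3:**
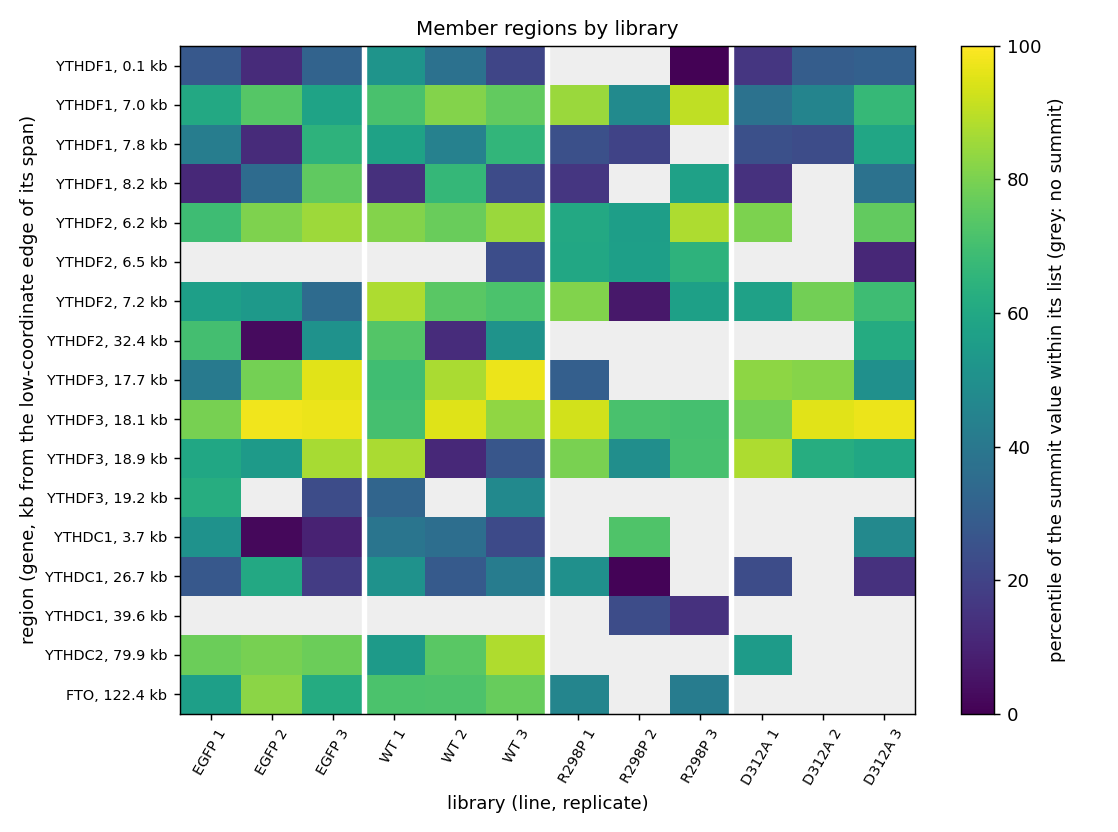
Rank of the summit value within its own list (colour, percentile, grey for no summit) for 17 regions in the 12 libraries (horizontal axis). Rows (vertical axis) give the gene and the distance in kb from the low-coordinate edge of its span. Shown are the 14 regions present in every EGFP and WT library. A region each of YTHDF2, YTHDF3 and YTHDC1, picked for its pattern across lines, was added, and ALKBH5 has no row. The YTHDC2 row is grey in all 3 R298P libraries, the FTO row in all 3 D312A libraries, and the second YTHDF3 row from the top is filled in all 12.

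After the summit maps were seen, the 6 libraries of R298P and D312A were also set against the 6 of EGFP and WT. Only 2 lines stand on each side, and libraries of the same line are not independent units of this contrast. The exact p values below therefore do not measure the spread between lines. YTHDC2 held 1 ± 0 summits in EGFP and WT and 0.167 ± 0.408 in the substituted lines (SD, n = 6, exact p = 0.0152), and YTHDF3 held 5.83 ± 0.753 and 4.67 ± 0.516 (SD, n = 6, exact p = 0.0325). Both adjusted p values were 1. These were 2 of 7 members, where 3.09% of all genes were called in either direction and 3.02% lower in the substituted lines. Tested as single regions, 2 of the 32 member regions were called lower there, that of YTHDC2 and that of YTHDF2 near its end (exact p = 0.0152 each, adjusted p = 1), where 0.565% of all regions were. For YTHDC2, with its single region, this repeats the test of its count. FTO missed the threshold (difference of -0.67, exact p = 0.0606), and so did YTHDF1 (-0.67, p = 0.275), YTHDC1 (-0.50, p = 0.725) and YTHDF2 (-0.33, p = 0.636). In replicate 1 alone the YTHDC2 difference was -0.50 and in replicates 2 and 3 it was -1, and for YTHDF3 these were -0.50 and -1.5. In this comparison the YTHDF3 difference was -0.089 per 10000 summits (exact p = 0.844), -0.33 with lists of equal length (exact p = 0.773) and -1.17 with values of at least 10 (exact p = 0.132). YTHDF3 in R298P alone kept a difference of -1.33 with lists of equal length, as given above.

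The 7 genes held 14 regions that were present in all 6 EGFP and WT libraries. Of these, 4 were present in all 12 libraries (28.6%), against 58.0% of the 5860 such regions in the series. At the other end, 4 of the 14 were present in at most 2 of the 6 substituted libraries (YTHDC2, FTO, YTHDF2 near its end, and YTHDC1 at 68314120), where 5.12% of all such regions were. Absent from 3 of 3 R298P libraries were 2 of 14, against 2.8% of all, and absent from 3 of 3 D312A libraries 1 of 14, against 1.45%. These counts were also chosen after the maps were seen, and carry no test.

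Along the genes, the position of the summits differed from member to member. All 7 YTHDC2 summits and the ALKBH5 summit lay in the last 10% of the span, and the FTO region at 29.3% of it. Of the 139 summits in the 6 members with a known strand, 25.9% lay in the last 10% of the span, against 39.0% of 111394 summits in all such genes, and 1.44% in the first 10%, against 11.8%. The dense inner stretches of YTHDF1 and YTHDF2 hold 41 and 29 of these summits, so these shares rest mainly on a pair of genes and carry no test. Exons and untranslated regions were not told apart here.

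Input RNA of the 7 genes was read from the authors' deposited table, which compares the input libraries of WT and R298P and does not state which line is the numerator; signs are therefore given without a direction. The table names genes by Ensembl identifier only, and the identifiers of the 7 genes were supplied from general knowledge of the annotation, since no table used here pairs them. Of the 7 genes, 0 passed in the authors' deposited table at an adjusted p under 0.05, where 2.74% of 42677 genes passed. At an unadjusted p under 0.05 there were 2 of 7, FTO and YTHDF2, against 20.3% of the 5537 genes with a mean log2 CPM (read counts scaled to library size) at or above that of the lowest member. FTO had a log2 fold change of 0.27 (p = 0.00523, adjusted p = 0.129) and YTHDF2 of 0.23 (p = 0.0196, adjusted p = 0.295) in the authors' deposited table. With the deposited p-values adjusted again over the 15164 genes with a mean log2 CPM of at least 0, the adjusted p was 0.0535 for FTO and 0.137 for YTHDF2.

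The other members differed by 0.18 (YTHDC1), 0.10 (YTHDC2), 0.08 (ALKBH5), 0.03 (YTHDF1) and -0.05 (YTHDF3) on the log2 scale in the authors' deposited table, with adjusted p from 0.569 to 0.933. The median size of the change was 0.0963 in the 7 genes and 0.0948 in genes at or above the lowest member's level. YTHDC2, whose m6A region was absent from all R298P libraries, thus had a log2 fold change of 0.10 in the authors' deposited table, with an adjusted p of 0.717. ALKBH5, with 1 summit in all, had a mean log2 CPM of 7.24 in the authors' deposited table, and its p was 0.408. No input values of EGFP or D312A were used here, so the FTO and D312A result has no RNA level beside it.

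**Figure D4:**
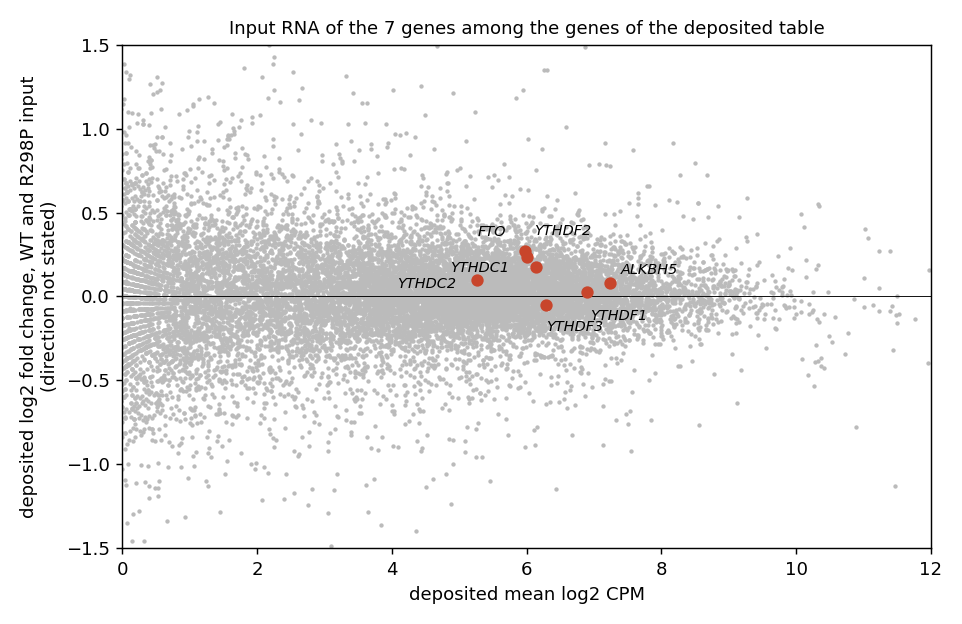
Log2 fold change (vertical axis, between WT and R298P input, direction not stated) against mean log2 CPM (horizontal axis) for the genes of the authors' deposited table inside the axes, grey, and the 7 genes, red. The 7 genes lie between 5.25 and 7.24 on the horizontal axis and between -0.05 and 0.27 on the vertical axis.

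Other genes of the m6A pathway give the setting. All 9 writer genes listed (METTL3, METTL14, METTL16, WTAP, VIRMA, RBM15, RBM15B, ZC3H13 and CBLL1) held summits, 8 of them in all 12 libraries, and 1 was called across the 4 lines, METTL14, the expressed gene. WTAP, the adaptor that holds the writer complex at nuclear speckles, gained a region at chromosome 6, 159755521 to 159755545, which all 3 R298P libraries held and 0 of the remaining 9 did. RBM15, which brings the complex to its targets, gained 1 at chromosome 1, 110340871 to 110340892, held by 3 of 3 R298P, 1 of 3 D312A and 0 of 6 EGFP and WT libraries. VIRMA, the scaffold of the complex, lost a region at chromosome 8, 94488620 to 94488640, in R298P and in D312A against WT; 2 of 3 EGFP and 3 of 3 WT libraries held it and 0 of 6 others did. METTL16, a separate methyltransferase, lost 1 in R298P against EGFP at chromosome 17, 2420378 to 2420402. Against WT the writers thus had 2 regions gained and 1 lost in R298P, beside the 0.711% and 1.72% of all regions given above. All 12 readers outside the YTH family held summits, 4 of them in all 12 libraries, and 0 were called across the 4 lines. Among 7 further AlkB enzymes 6 held summits (ALKBH3 held none) and 0 were called, and among 10 proteins that work with YTH readers 6 held summits and 0 were called. In these 3 lists R298P gained 0 and lost 0 regions against WT and against EGFP, beside 0.711% gained and 1.72% lost of all regions against WT. D312A lost 1 region in PRRC2A, a reader, against WT, where 1.32% of all regions were lost. It lost 1 in UPF1, a decay helicase, against EGFP, where 1.17% of all were. The regions tested in the writer list and in these 3 lists were not counted, so their calls cannot be read as shares. In R298P against D312A, PRRC2A and ALKBH4 gained 1 region each, where 1.47% of all regions were gained.

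The protein-coding genes whose summit counts followed those of a member most closely over the 12 libraries were found by Pearson correlation among 2138 genes with a mean of at least 2 summits. YTHDC1 was closest to MLXIP (r = 0.942), KMT2D (0.904) and ZNF317 (0.859), and YTHDF3 to INO80D (0.867), EPHA2 (0.852) and NUP98 (0.850). For YTHDF1 the closest were CHPF2 (0.784), LONP2 (0.777) and RMI2 (0.773), and for YTHDF2 ASXL2 (0.785), PIKFYVE (0.781) and NFYA (0.779). All 12 points share the libraries and their list lengths, and the values are a description only.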

How the data were processed

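The 7 genes and the other gene lists were chosen with earlier results of these data known. RNA was fragmented to about 120 nt before precipitation, per the labels' protocols. Per the submitters' processing notes, the tools were bedtools 2.17.0, edgeR, FastQC 0.11.2, featureCounts, HOMER 4.9, MACS2 2.1.2, Picard, STAR 2.7.9a and Trim Galore 0.4.4, with build hg38 and no settings given. The authors deposited 1 summit list per IP library, and its values, by their range, were taken to be −log10 of MACS2's p or q; the sources used here give neither the threshold nor the input behind each list. The values served only to rank or filter within a list. The authors deposited log2 fold changes, mean log2 CPM, likelihood ratio scores, p-values and adjusted p-values of input RNA; 18 further columns, which no label ties to a sample, were not used, so the planned count test was not run.

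Positions are 1-based on hg38, and spans, starts and the printed sequence come from RefSeq GRCh38.p14. Summits within 100 nt were merged into regions. Exact permutation tests ran over all 15400 partitions (4 lines), every choice of 3 libraries (1 line against 9) or of 6 (added after seeing the data). Genes named are the members, list genes with a call, the full list of writers, the list gene without a summit in the AlkB family, and the 3 nearest genes by correlation. Python 3.11.15, numpy 2.4.6, pandas 2.3.3 and scipy 1.17.1 were used, and the test code was tested on simulated data. Alternatives were merging within 50 or 200 nt, values of at least 10, lists of equal length (8669), counts per 10000 summits, a replicate block, a block by list code and leaving out libraries.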

Additional observations from a re-analysis of the deposited data

How the results depend on the processing

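Limits: depth is unknown, 3 libraries per line allow no call between 2 lines, and no gene passed adjustment over all genes. The R298P and D312A lists are shorter. The number of members called lower in the 6 substituted libraries was 2; it was 1 with values of at least 10, with lists of equal length, per 10000 summits and with the replicate block, and 2 to 3 when single libraries were left out. In R298P against the other 9 it was 2, then 1 with lists of equal length, per 10000 summits or with the list code as a block, 0 with the replicate block and 0 to 3 on leaving out a library. Across the 4 lines it was 1, then 0 with the block and 1 to 2 on leaving out a library; in D312A 1 became 0 to 2, and in EGFP 0 became 0 to 1. With the block, YTHDC2 had an exact p of 0.0833 across the 4 lines and 0.0625 in R298P, and YTHDF3 0.0625 in R298P and 0.0556 in the 6 against 6. Libraries of different lines were also correlated on counts per 10000 summits, after the mean of its line was subtracted from each library, gene by gene. What was left correlated at -0.525 to 0.615 over the 18 same-numbered pairs, median 0.265, with 11 of 18 above 0.1. For other pairs the median was -0.133, with 12 of 36 above 0.1. The subtraction makes the covariances of all pairs between 2 lines sum to 0, so a higher value in 1 set forces a lower value in the other. The contrast of the medians therefore cannot decide whether the numbers are a pairing, and results are given with and without the replicate block.

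Per 10000 summits, the difference of the substituted from the other libraries turned to 0.047 for YTHDF1 and 0.152 for YTHDF2, and that of YTHDC1 turned to 0.033 without D312A replicate 2, within a range of -0.967 to 0.033 on leaving out single libraries; none of the 3 was called. Regions gained or lost in R298P against EGFP were 3, or 5 with merging within 50 nt, which splits the YTHDF1 region into 1 gained and 1 lost. Against WT, R298P had 2, or 4 with values of at least 10 and 3 with lists of equal length. D312A had 1 against WT, or 2 with values of at least 10, and R298P against D312A had 0, or 2 with values of at least 10 and 1 with lists of equal length. With 1 replicate number left out, so that a call needs 2 of 2 against 0 of 2, the totals were 4 to 5 for R298P against EGFP, 4 to 5 for R298P against WT, 2 to 5 for D312A against EGFP, 2 to 3 for D312A against WT, 2 for R298P against D312A and 0 to 2 for WT against EGFP. The share of member regions held by every EGFP and WT library that were present in every library stayed below that of all regions in each alternative, from 23.1% against 56.1% to 43.8% against 64.7%. The number called in the authors' deposited table was also 0 at an adjusted p under 0.1. It was 0 too over the genes with a mean log2 CPM of at least 0.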

Other observations

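Summits within 100 nt of an annotated gene start, the class to which the YTHDC1 summits of R298P belong, were counted in all genes after those summits were seen. The R298P libraries held 422, 388 and 444, and each lay above every other library. EGFP held 323, 329 and 222, WT 346, 276 and 304, and D312A 357, 243 and 359. The mean was 418 ± 28.2 in R298P (SD, n = 3) and 307 ± 49.7 in the other lines (SD, n = 9), a difference of 111 (exact permutation p = 0.00909, two-sided). As a percent of the list the difference was 0.997 points (exact permutation p = 0.00455, the smallest this design can give). YTHDC1 was among the 1444 genes with such a summit, 18.6% of the genes counted; 1 of the 6 members with a known strand is near that share.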
